A study of Mus musculus with 11 samples.

Results

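A group of cartilage and bone genes was followed in RNA-seq libraries of the whole main olfactory epithelium (MOE), the sheet of sensory neurons and supporting cells that lines the turbinates and septum of the nose. They were picked by symbol as markers of the skeleton beneath this sheet, and they numbered 10 of the 24421 entries of the count table. The cartilage genes were Col2a1, Acan, Col9a1 and Matn1, Col10a1 marked hypertrophic cartilage, and the bone genes were Ibsp, Sp7, Runx2, Bglap and Spp1. The 11 libraries came from wild type mice (n = 3), from mice with a heterozygous deletion of the olfactory Taar gene cluster, Taar2 to Taar9 (n = 4), and from homozygous mice (n = 4), with no other treatment. All are labelled C57BL/6 and P1-P2, that is, between 1 and 2 days after birth. The study's reporting text gives an older age and a background mixed with 129 for this line, in which an enhancer of the Taar genes is lost together with the cluster, and which age applies was not settled here. Nothing in the labels says that the replicates were separate animals or litters, so the p-values measure the spread between these libraries.

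Nasal turbinates and septum form first as cartilage. Chondrocytes secrete a matrix of type II collagen and the proteoglycan aggrecan, and where cartilage is to be replaced they enlarge and switch to type X collagen. Osteoblasts then lay down a mineralised matrix under the control of the transcription factors RUNX2 and SP7, and osteoclasts resorb it. Such transcripts in an MOE library were taken as a measure of the supporting skeleton dissected with the epithelium. In bulk tissue, fewer cells of a type and less RNA per cell cannot be told apart.

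Total counts ran from 9239866 to 14632525 per library, and the 14 olfactory Taar genes summed to 87 to 119 counts in wild type, 31 to 96 in heterozygous and 1 to 3 in homozygous libraries. Markers of mature olfactory sensory neurons (OSNs) were present in every library, with Omp, the olfactory marker protein, at 346 to 737 CPM (a count scaled to a common library total, after TMM scaling). Homozygous replicate 2 stood apart, with 25.8% of its counts on the ribosomal entry Rn45s against 0.0848 to 0.786% in the others. The libraries also fell into 2 sets on the first principal component, which held 44.5% of the variance of 16504 genes with the skeletal lists left out. By replicate number, set 1 consisted of 1 and 2 of the wild type, 3 and 4 of the heterozygous and 1 and 2 of the homozygous libraries, and set 2 of the remaining 5. Labels give no batch that matches these sets.

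Cartilage transcripts were abundant in every library, and they varied more between libraries of 1 genotype than most transcripts did. All 10 genes passed the filter on low counts and entered the test. Together they took between 0.501% of counts (wild type replicate 1, 95% Wilson interval 0.497 to 0.505%) and 1.36% (heterozygous replicate 3, 1.35 to 1.36%), intervals that cover counting error only. Per kilobase of exon, Col2a1 ranked 15 of 15977 tested genes with a known length, at a mean of 683 CPM per kb. Col9a1 ranked 117, Spp1 167, Acan 307, Ibsp 413 and Matn1 516. Col10a1 ranked 1277, while Sp7 (6706), Runx2 (7757) and Bglap (9225) sat in the middle of the range. Matn1, the lowest per length of Col2a1, Acan, Col9a1 and itself, lay above 96.8% of these genes.

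Col2a1 encodes type II collagen, the main fibre of cartilage (mm10, chr15:97975602-98004695, minus strand). Its level was 3493, 9375 and 4501 CPM in wild type replicates 1 to 3, 6059.9, 6110.4, 9557 and 4283 CPM in heterozygous replicates 1 to 4, and 5747, 5912, 7424 and 6944 CPM in homozygous replicates 1 to 4. The homozygous libraries all lay between the lowest and the highest wild type library. Acan, the gene of aggrecan (chr7:79053483-79115099, plus strand), had 384, 1032 and 458 CPM in wild type, 648, 551, 1129 and 598 CPM in heterozygous and 709, 730.5, 725 and 665 CPM in homozygous libraries. Again every homozygous library fell within the wild type range, and heterozygous replicate 3 stood above the other 10 libraries.

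Col9a1 encodes a chain of type IX collagen, which coats the type II fibres (chr1:24177610-24252684, plus strand). Its libraries read 538, 1238 and 661 CPM in wild type, 796, 886, 1405 and 704 CPM in heterozygous and 855, 942, 1041 and 774 CPM in homozygous mice. Matn1 encodes matrilin-1, a linker protein of the cartilage matrix (chr4:130944385-130955475, plus strand). It had 48.3, 161 and 100.4 CPM in wild type, 115, 129, 285 and 63.6 CPM in heterozygous and 158, 181, 117 and 133 CPM in homozygous libraries. For all 4 cartilage genes the lowest library was wild type replicate 1 and the highest was heterozygous replicate 3. The highest library exceeded the lowest 2.74-fold for Col2a1, 2.94-fold for Acan, 2.61-fold for Col9a1 and 5.91-fold for Matn1, where the median over tested genes with a count in every library was 1.95-fold.

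Col10a1, the type X collagen of hypertrophic chondrocytes (chr10:34389981-34397085, plus strand), did not share this order. Wild type replicate 1, the lowest library for the other cartilage genes, was the highest here at 199 CPM, and wild type replicates 2 and 3 had 112 and 45.4 CPM. Heterozygous libraries had 72.7, 191, 141 and 98.9 CPM and homozygous libraries 107, 92.6, 119 and 69.5 CPM. The gene lies opposite Nt5dc1, and the strand setting of the counting is not given in the sources used here, so reads of the 2 genes may not be separated.

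**Figure D1:**
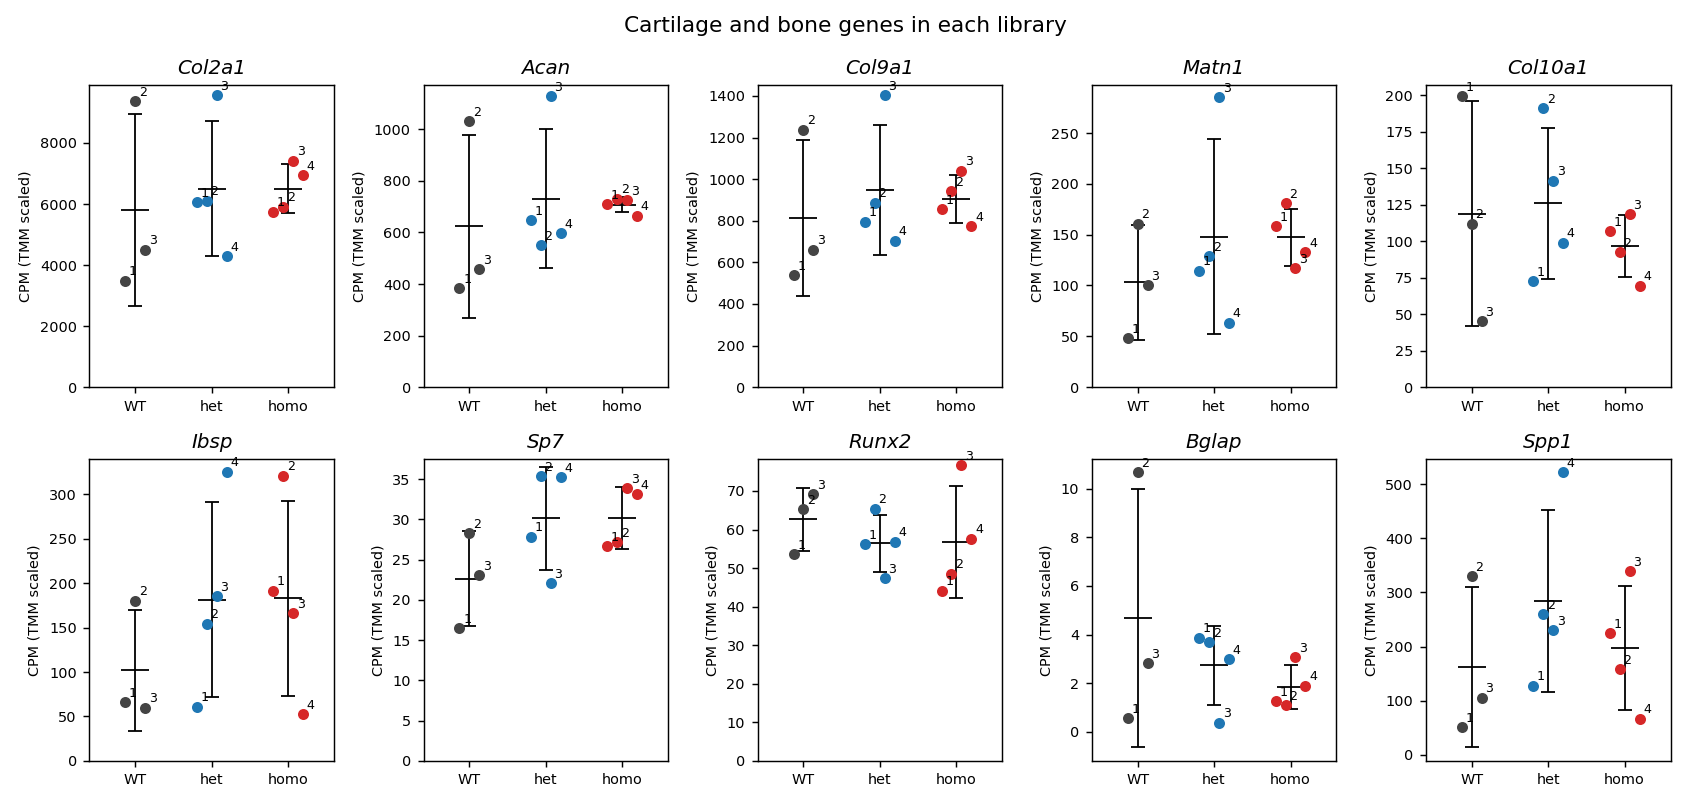
Level of each of the 10 genes, as CPM after TMM scaling on a linear axis, in wild type (WT, n = 3), heterozygous (het, n = 4) and homozygous (homo, n = 4) libraries. Points are libraries with their replicate number, the short line is the mean and bars are SD (n as given). Wild type replicate 1 is at the bottom and heterozygous replicate 3 at the top for Col2a1, Acan, Col9a1 and Matn1, and in no gene are 2 genotypes separated.

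Runx2 and Sp7 encode the transcription factors that commit cells to the osteoblast lineage. Runx2 (chr17:44495987-44814797, minus strand) was the steadiest of the genes, with a 1.74-fold difference between its highest and lowest library. It had 53.6, 65.3 and 69.1 CPM in wild type, 56.2, 65.3, 47.4 and 56.8 CPM in heterozygous and 44.2, 48.5, 76.7 and 57.7 CPM in homozygous libraries. Its gene overlaps Supt3 on the opposite strand, and its reads carry the same uncertainty as those of Col10a1. Sp7 (chr15:102356606-102367182, minus strand) had 16.5, 28.3 and 23.1 CPM in wild type, 27.9, 35.4, 22.1 and 35.2 CPM in heterozygous and 26.7, 27.2, 33.9 and 33.1 CPM in homozygous libraries. Wild type replicates 1 and 3 lay below every homozygous library, and wild type replicate 2 lay among them.

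Ibsp and Spp1 encode bone sialoprotein and osteopontin, acidic proteins of the mineralised matrix that sit on the same chromosome. Ibsp (chr5:104299171-104311469, plus strand) had 65.8, 180.2 and 59.8 CPM in wild type, 61.0, 154, 185 and 326 CPM in heterozygous and 191, 321, 166 and 52.8 CPM in homozygous libraries. Spp1 (chr5:104435118-104441050, plus strand) had 50.8, 330.4 and 105 CPM in wild type, 127, 259.7, 230.4 and 522 CPM in heterozygous and 225, 158, 339 and 66.4 CPM in homozygous libraries. Both were highest in heterozygous replicate 4, and the genotypes overlapped in both genes. The highest and lowest libraries differed 6.16-fold for Ibsp and 10.3-fold for Spp1. Ibsp averaged 212 CPM in set 1 and 98.8 CPM in set 2, and within the sets homozygous libraries stood on average 1.18 (set 1) and 0.64 (set 2) above wild type on the log2 scale. Set 2 has 1 wild type library (59.8 CPM). Of its homozygous libraries replicate 3 (166 CPM) lay above that library and replicate 4 (52.8 CPM) below it.

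Bglap encodes osteocalcin, a late product of osteoblasts (chr3:88383501-88384464, minus strand). It was the lowest of the genes, with between 4 and 133 counts a library. Its level was 0.556, 10.7 and 2.83 CPM in wild type, 3.88, 3.69, 0.379 and 2.997 CPM in heterozygous and 1.26, 1.09, 3.08 and 1.89 CPM in homozygous libraries. Wild type replicate 2 had the highest value of all and wild type replicate 1 the second lowest, so that wild type spanned nearly the whole range, in which the extremes differed 28.1-fold.

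Osteocalcin reads may be shared between 3 neighbouring copies, Bglap, Bglap2 (chr3:88377736-88378699) and Bglap3 (chr3:88368616-88372743), all on the minus strand. The first 60 coding bases of each, from the GENCODE M21 transcripts, are shown because they bear on how far Bglap can be told from its copies, with capitals marking bases that differ from Bglap.
Bglap: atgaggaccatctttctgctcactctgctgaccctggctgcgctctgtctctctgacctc
Bglap2: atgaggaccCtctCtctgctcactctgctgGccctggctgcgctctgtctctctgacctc
Bglap3: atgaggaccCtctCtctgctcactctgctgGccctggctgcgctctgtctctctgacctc
Over 288 coding bases Bglap differed from Bglap2 at 4 positions (98.6% identity) and from Bglap3 at 13 (95.5%). Of the 51-base stretches of the Bglap transcript, 74.4% also occurred in Bglap2 and 19.7% in Bglap3, and how reads with several positions were treated is not given in the sources used here. Bglap2 ran with Bglap over the 11 libraries (r = 0.91), from 0.185 CPM in wild type replicate 1 to 5.21 CPM in wild type replicate 2. Bglap3 did not (r = 0.24), and it was highest in heterozygous replicate 4 at 64.8 CPM, where Bglap had 2.997 CPM. Counts of the single copies are therefore uncertain.

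RUNX proteins bind short sites with the letters ACCACA, which read TGTGGT on the other strand, and these were sought on both strands in the RefSeq promoter windows (GRCm38.p6) of 250 bases before to 50 after the start. Windows were found for 8 of the 10 genes, not for Col2a1 and Sp7. The letters occurred in 4 of the 8 genes (Matn1, Runx2, Bglap and Spp1), or 4 of their 10 windows. Among all genes with a window 18.9% of 27025 held them in at least 1, and 16.8% of all 32851 windows did. The TATA letters, TATAAA or on the other strand TTTATA, occurred in 4 of the 8 genes (Col10a1, Ibsp, Bglap and Spp1), in 15.7% of all genes and in 13.6% of windows. Letters bound by SOX proteins, ACAAAG or on the other strand CTTTGT, occurred in 2 of the 8 (Col10a1 and Spp1), in 5680 of the 27025 genes and in 18.7% of windows. Of the windows, 3 are shown from 220 bases before to 20 after the start, 1 of cartilage and 2 of bone, as examples that hold the RUNX letters, with RUNX and TATA letters in capitals. They are Matn1 at chr4:130944165-130944404 (plus strand), Spp1 at chr5:104434891-104435130 (plus strand) and Bglap at chr3:88384447-88384686 (minus strand).
Matn1: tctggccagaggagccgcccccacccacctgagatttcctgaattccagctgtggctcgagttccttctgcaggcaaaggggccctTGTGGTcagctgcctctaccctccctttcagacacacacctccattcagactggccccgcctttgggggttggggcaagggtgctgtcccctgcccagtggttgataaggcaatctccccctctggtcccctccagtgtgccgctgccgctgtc
Spp1: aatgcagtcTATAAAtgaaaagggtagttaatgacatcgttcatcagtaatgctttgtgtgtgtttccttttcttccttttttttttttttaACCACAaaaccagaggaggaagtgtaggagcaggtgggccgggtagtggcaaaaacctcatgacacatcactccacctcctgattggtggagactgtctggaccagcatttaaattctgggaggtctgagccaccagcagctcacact
Bglap: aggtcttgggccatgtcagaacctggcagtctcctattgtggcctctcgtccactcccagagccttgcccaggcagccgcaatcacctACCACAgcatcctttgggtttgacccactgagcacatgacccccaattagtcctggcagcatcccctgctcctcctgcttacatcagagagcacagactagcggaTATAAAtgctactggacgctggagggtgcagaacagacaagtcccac
A match of letters is a description of the window and not a binding site shown here.

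Did the skeletal content of the dissections differ with genotype? None of the 10 genes passed the test in any of the 3 comparisons without pairing (edgeR, adjusted p under 0.05), where 0% of the 16574 genes did so. Taar6, Taar7e and Taar7f, which lie in the deleted cluster, did not pass in homozygous against wild type either. Their log2 fold changes were -7.41, -6.74 and -6.28, at 32 counts or fewer a library (edgeR, adjusted p 0.173, 0.195 and 0.185). A lack of calls here therefore does not show equal levels. With same-numbered wild type and homozygous libraries as pairs, 1 of the 10, Ibsp, passed, beside 0.241% of 16163 genes (39), as described with the bone genes. At an unadjusted p under 0.05 the count was again 0 of 10 in homozygous against wild type, beside 3.02% of all genes (500), 0 of 10 in heterozygous against wild type, beside 2.24% (372), and 0 of 10 in homozygous against heterozygous, beside 0.561% (93). With DESeq2 in place of edgeR, 8, 3 and 2 genes passed in these comparisons, none of them among the 10. In no comparison did 2 genotypes fail to overlap in any of the 10 genes, while 4.99%, 2.51% and 0.597% of all genes did not overlap. A test of the 3 genotypes together called 0 of the 10 at an unadjusted p under 0.05, beside 1.45% of genes.

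Fitted differences were small for the collagens and wide for the bone matrix genes. Col2a1 in homozygous against wild type had a log2 fold change of 0.17 (SE 0.34), with a 95% interval on the fold of 0.667 to 1.89. Acan had 0.18 (SE 0.33) and Col9a1 0.15 (SE 0.30), so that changes of more than about 1.9-fold in the 3 genes lay outside their intervals in this fit. That bound depends on wild type replicate 2, without which Col2a1 had 0.70 (SE 0.30) and Acan 0.75 (SE 0.28). With all libraries, Matn1 had 0.51 (SE 0.46) and Col10a1 -0.29 (SE 0.43).

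Among the bone genes the least unadjusted p was that of Sp7, at 0.0822 in homozygous and 0.0851 in heterozygous against wild type (edgeR, adjusted p 0.996 and 0.99997), with log2 fold changes of 0.42 (SE 0.22) and 0.41 (SE 0.22). Runx2 had -0.14 (SE 0.19) and -0.15 (SE 0.19). Ibsp had 0.84 (SE 0.62) and 0.83 (SE 0.62), with fold intervals from 0.698 to 4.61 and from 0.693 to 4.57. Spp1 had 0.28 (SE 0.65) and 0.81 (SE 0.66). Bglap had the most negative estimates, -1.34 (SE 0.81, fold interval 0.117 to 1.34) and -0.77 (SE 0.79). In this fit the intervals of these 3 matrix genes all included no difference.

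The call for Ibsp changed with pairing. In a fit of the wild type and homozygous libraries alone with the replicate number as a block, chosen after seeing the data, Ibsp was higher in homozygous libraries by 1.26 on the log2 scale (SE 0.16, edgeR, adjusted p 0.0260). It was the higher one in homozygous mice in 3 of 3 pairs, at 191 against 65.8, 321 against 180.2 and 166 against 59.8 CPM. Homozygous replicate 4, which had the lowest Ibsp of all libraries at 52.8 CPM, has no wild type partner and does not inform this value. At an unadjusted p under 0.05 there were 2 of the 10 genes, Ibsp and Matn1 (0.66, SE 0.28), beside 6.31% of all genes. Skeletal muscle genes were also higher in homozygous mice in 3 of 3 pairs, with mean log2 levels of 2.66 against 0.58, 3.91 against 1.95 and 4.67 against 1.33, and their part in the Ibsp value was not tested. Each pair lay within 1 of the 2 library sets, and differently numbered wild type and homozygous libraries of the same set had correlated deviations (0.26 to 0.48) much as same-numbered ones did (0.34 to 0.44), so that a shared number cannot be told apart from a shared set. With the set as a covariate in the fit of all 11 libraries, Ibsp had 0.99 (SE 0.45, unadjusted p 0.0475, edgeR, adjusted p 0.705), as 1 of the 10 genes at an unadjusted p under 0.05 beside 6.83% of all genes. With the block over all 3 genotypes it had 0.95 (SE 0.63, edgeR, adjusted p 0.99990). With no block, leaving out 1 library moved it between 0.41 (SE 0.62, without homozygous replicate 2) and 1.54 (SE 0.69, without wild type replicate 2), with 1.15 (SE 0.56) without homozygous replicate 4 and none passing after adjustment.

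The log2 fold change was above 0 for 7 of the 10 genes in homozygous and 8 of 10 in heterozygous against wild type, where 52.8% and 50.4% of all genes were above 0. Its median over the 10 genes was 0.17 and 0.22, against 0.0155 and 0.00185 over all genes. Both comparisons use the same 3 wild type libraries. In homozygous against heterozygous 4 of 10 were above 0 (51.8% of all genes), and the median was -0.03 against 0.01.

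**Figure D2:**
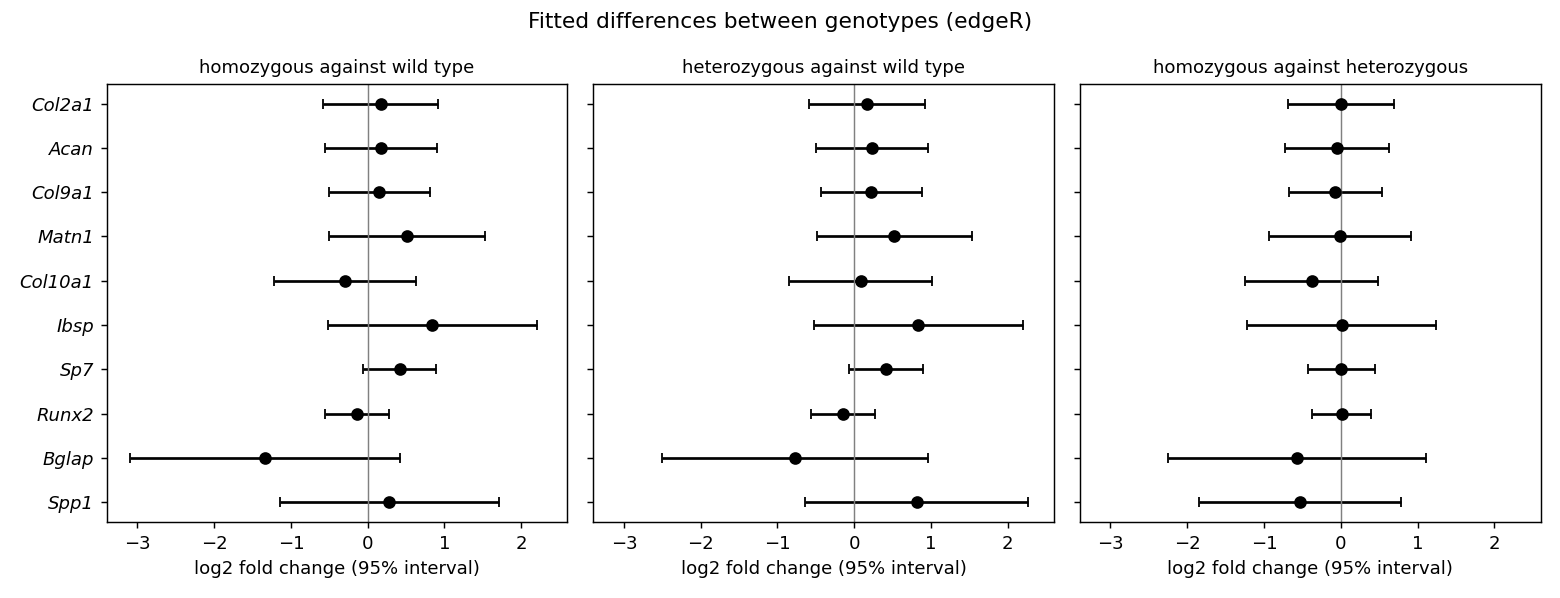
Log2 fold change of the 10 genes (points) with 95% intervals (bars) from the edgeR fit over all 11 libraries, in 3 comparisons of genotypes. Every interval includes 0, and those of Ibsp, Bglap and Spp1 are the widest of the 10.

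These estimates moved when single libraries were left out. When wild type replicate 2 was left out, 4 of the 10 genes had an unadjusted p under 0.05 in homozygous against wild type (Col2a1, Acan, Ibsp and Sp7), beside 3.02% of all genes in that fit. In heterozygous against wild type there were 6 (Col2a1, Acan, Col9a1, Ibsp, Sp7 and Spp1), beside 2.18%. All of them were higher in the deletion groups, by 0.70 and 0.70 on the log2 scale for Col2a1 and by 0.75 and 0.80 for Acan. None passed after adjustment over all genes. Without wild type replicate 1 the sign turned for Col2a1 (-0.09 and -0.09), Acan (-0.08 and -0.03) and Col9a1 (-0.07 and -0.00328), and in homozygous against wild type for Spp1 (-0.14) and Col10a1 (0.30). There 1 of the 10 genes, Bglap at -1.86, had an unadjusted p under 0.05, beside 2.09% of all genes. Bglap itself turned to 0.12 and 0.69 once replicate 2 of the wild type was removed. For heterozygous mice the 4 cartilage genes also turned against wild type to between -0.08 and -0.01 without heterozygous replicate 3, and 1 of the 10 genes, Sp7 at 0.53, had an unadjusted p under 0.05 in that fit, beside 2.51% of all genes.

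The spread between libraries of 1 genotype was the main feature of the 10 genes. The SD of log2 levels within genotypes exceeded the median of all tested genes (0.30) in 8 of 10, all but Sp7 and Runx2, and its median over the 10 was 0.58. It was 1.13 for Bglap, 1.05 for Spp1 and 1.01 for Ibsp. The median share of the variance of log2 levels that lay between genotypes was 9.85% for the 10 genes and 9.54% for all genes.

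Over all 11 libraries the cartilage genes ran together more closely than they ran with the bone genes. Over the 11 libraries, which share their scaling, Pearson's r of log2(CPM + 0.5) was 0.83 to 0.94 for the 6 pairs among Col2a1, Acan, Col9a1 and Matn1. Without wild type replicate 1 and heterozygous replicate 3, the libraries farthest from the median of each of the 4 genes, it was 0.81 to 0.88 among the other 3 but 0.55 to 0.64 for the pairs with Matn1. For the 20 pairs of a bone and a cartilage gene it ran from -0.28 to 0.56, with a median of 0.25. Col10a1 had r between -0.07 and 0.17 with the cartilage genes and between -0.25 and 0.33 with the bone genes. These low values rest on few libraries. Without the same 2 libraries r of Col10a1 was 0.20 to 0.57 with the cartilage genes, and without wild type replicates 1 and 3, farthest in Col10a1, it was -0.02 to 0.57 with the bone genes.

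Within bone, r spread from -0.24 to 0.80 over 10 pairs. The matrix genes Ibsp and Spp1 ran together (0.80), and Bglap ran with Runx2 (0.67) and Sp7 (0.57). Ibsp had r = -0.24 with Runx2. No single order of the libraries held for all 5 bone genes.

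**Figure D3:**
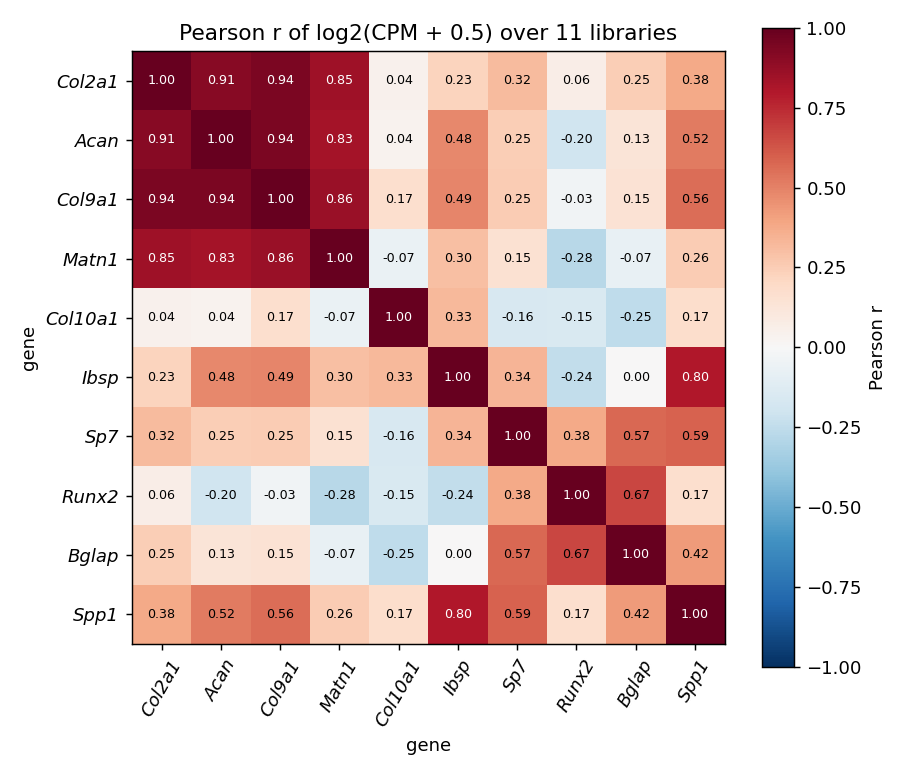
Pearson's r of log2(CPM + 0.5) for each pair of the 10 genes over 11 libraries, from -1 (blue) to 1 (red). Col2a1, Acan, Col9a1 and Matn1 form a block at 0.83 to 0.94, Col10a1 reaches at most 0.33 with any other gene, and Ibsp and Spp1 (0.80) are the closest pair among the bone genes.

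To order the libraries, a cartilage score (mean log2(CPM + 0.5) of the 4 cartilage genes) and a bone score (the same over the 5 bone genes) were formed. The bone score moves mostly with Bglap, Spp1 and Ibsp, whose SDs within genotypes were 1.13, 1.05 and 1.01, against 0.30 for Sp7 and 0.26 for Runx2. The cartilage score was 9.41 ± 0.73 in wild type (SD, n = 3), 9.73 ± 0.55 in heterozygous (SD, n = 4) and 9.78 ± 0.07 in homozygous libraries (SD, n = 4). The bone score was 5.13 ± 0.86, 5.49 ± 0.47 and 5.31 ± 0.41. All groups overlapped in both scores, and the homozygous libraries covered the narrowest range of the cartilage score, 9.70 to 9.86, within a wild type range of 8.76 to 10.2.

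Homozygous minus wild type was 0.38 in the cartilage score, 0.32 within set 1 and 0.51 within set 2, where wild type has 1 library. It was 0.05 without wild type replicate 1 and 0.78 without wild type replicate 2. Heterozygous minus wild type was 0.32, 0.36 within either set, and -0.00173 and 0.72 without those libraries. In the bone score homozygous minus wild type was 0.18 (0.13 and 0.29 within the sets), and -0.22 and 0.64 without wild type replicates 1 and 2. Heterozygous minus wild type was 0.36 (0.36 and 0.42 within the sets), and -0.04 and 0.82 without them. No test was made of the scores.

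Cartilage and bone scores ranked the libraries differently (Pearson's r = 0.35, Spearman's rho = 0.34, n = 11, and r = 0.20 without the 2 libraries farthest from the median of the cartilage score). Without wild type replicates 1 and 2, farthest in the bone score, r turned to -0.31. Heterozygous replicate 3 led in cartilage at 10.5 and had a bone score of 5.06, below the heterozygous mean. Heterozygous replicate 4 had the lowest cartilage score of its genotype, 9.19, and its highest bone score, 6.04. Wild type replicate 1 was lowest and wild type replicate 2 among the highest 2 in both scores.

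**Figure D4:**
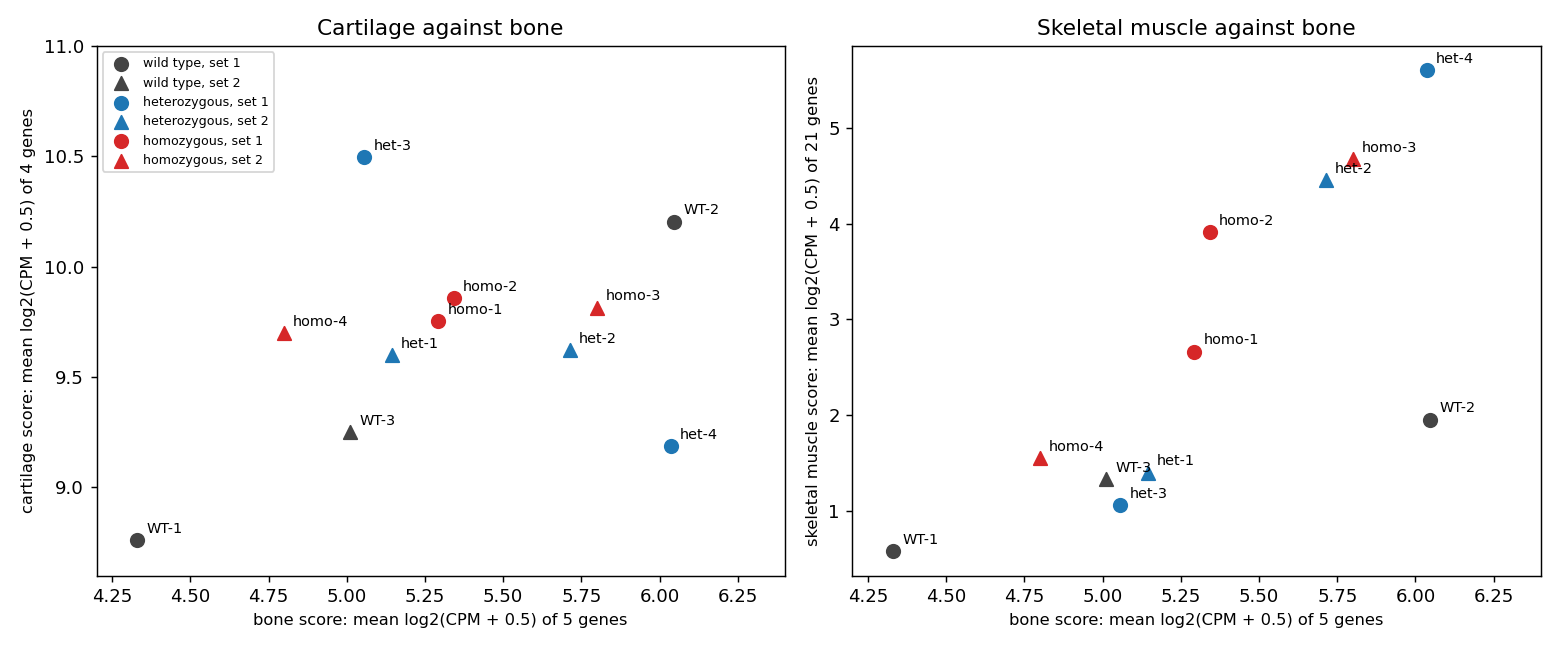
Left, cartilage score against bone score, and right, skeletal muscle score against bone score, all as mean log2(CPM + 0.5) per library. Points are libraries, coloured by genotype, with circles for set 1 and triangles for set 2. Wild type replicate 1 (WT-1) is lowest in all 3 scores, and heterozygous replicate 4 (het-4) is highest in muscle and near the highest in bone.

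Other genes of cartilage followed the cartilage score. Of 23 further cartilage genes, all tested, 0 passed the adjusted test in any comparison. In homozygous against wild type 18 of 23 had a log2 fold change above 0 (52.8% of all genes), with a median of 0.20. At an unadjusted p under 0.05, 1 was higher and 1 lower (beside 1.81% and 1.21% of all genes). These were Cytl1, a secreted factor of chondrocytes, at 0.76 (SE 0.29), and Trps1, a repressor in growth plate cartilage, at -0.42 (SE 0.15), both named after their values were seen. The 3 most abundant genes of the list, all fibrillar or fibre-bound collagens, had differences of 0.21 (Col11a2, SE 0.31), 0.30 (Col9a2, SE 0.27) and 0.04 (Col11a1, SE 0.35). The mean of the list had r = 0.95 with the cartilage score (rho = 0.95, n = 11), and 0.88 without the 2 farthest libraries. That mean was 5.98, 6.80 and 6.32 in wild type replicates 1 to 3, against 6.58 ± 0.11 in homozygous libraries (SD, n = 4). Replicate 1 lay farthest below the homozygous mean and replicate 2 above it, so the wild type libraries did not share 1 direction.

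Of 22 further bone genes 0 passed the adjusted test, and 7 had a log2 fold change above 0 in homozygous and 15 in heterozygous against wild type (medians -0.10 and 0.05), where 52.8% and 50.4% of all genes were above 0. At an unadjusted p under 0.05 there were 0 of 22 in homozygous against wild type (beside 3.02% of all genes) and 1 in heterozygous against wild type (beside 2.24% of all genes, and 1.75% counting only those higher). It was Ifitm5, an osteoblast membrane protein named after its values were seen (0.70, SE 0.31). The 3 most abundant genes are also made by fibroblasts. Sparc, the matrix protein osteonectin, had 0.03 (SE 0.24) in homozygous against wild type, and Col1a1 and Col1a2, the chains of type I collagen, had -0.03 (SE 0.36) and -0.13 (SE 0.36). The mean of the list, which includes Bglap2 and Bglap3, had r = 0.83 with the bone score (rho = 0.91). That mean was 4.26, 5.18 and 4.03 in wild type replicates 1 to 3, against 4.61 ± 0.36 in heterozygous and 4.44 ± 0.30 in homozygous libraries (SD, n = 4 each). Wild type replicate 2 lay above both means and replicates 1 and 3 below them, so the direction depended on replicate 2.

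Osteoclast genes tracked the bone score. The list mean had r = 0.89 with it (rho = 0.91, n = 11, and 0.95 without wild type replicates 1 and 2) but 0.15 with the cartilage score. Of 12 osteoclast genes 11 were tested and 0 passed in any comparison. Ctsk, the collagen-degrading protease of osteoclasts, ran from 80.6 CPM in wild type replicate 1 to 308 CPM in heterozygous replicate 4, and its difference in homozygous against wild type was 0.09 (SE 0.46). Mmp9, a matrix protease, had -0.50 (SE 0.54) and Clcn7, a chloride transporter of the resorbing membrane, 0.10 (SE 0.23). The genes of macrophages, cells related to osteoclasts, had r = -0.05 with the bone score.

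Among 16564 other tested genes, those whose log2 level had the highest r with the cartilage score were Cnmd (0.96), which encodes chondromodulin, Dact1 (0.94), Col11a1 (0.93), Igsf3 (0.93) and Chst11 (0.93), an enzyme that sulfates chondroitin. For the bone score they were Col22a1 (0.95), Dcstamp (0.92), needed for fusion of osteoclasts, Fndc1 (0.92), Acp5 (0.92), the tartrate-resistant phosphatase of osteoclasts, and Ctsk (0.92). In all, 10 genes exceeded 0.9 for the cartilage score and 5 for the bone score.

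Skeletal muscle transcripts varied with the bone score, and the 3 libraries highest in them were of the deletion groups. Of 23 muscle genes 21 were tested and 0 passed after adjustment. At an unadjusted p under 0.05, 19 of 21 were higher in heterozygous than in wild type (beside 1.75% of all genes) and 9 of 21 in homozygous than in wild type (beside 1.81%). Some tested genes passed the filter on low counts only through deletion libraries, which favours a higher level there. Myh2 is an example, at a mean of 0.107 CPM in wild type and 2.85 CPM in heterozygous libraries. The mean log2 level of the muscle genes was 0.58 to 1.95 in wild type, 1.06 to 5.60 in heterozygous and 1.55 to 4.67 in homozygous libraries. Heterozygous replicates 2 and 4 had 4.46 and 5.60. Heterozygous replicates 1 and 3 (1.40 and 1.06) and homozygous replicate 4 (1.55) lay within the wild type range. The counts of 19 and 9 genes thus rest on part of the deletion libraries. The mean level had r = 0.76 with the bone score (rho = 0.80, n = 11), 0.94 without wild type replicates 1 and 2, and -0.02 with the cartilage score. Myh1, a fast myosin, had 0 counts in all 3 wild type libraries. Acta1, skeletal actin, ran from 1.02 CPM in wild type replicate 1 to 446 CPM in heterozygous replicate 4 (both genes were named after their values were seen). The part of adhering muscle or other tissue in the bone values was not tested.

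The tested tooth genes were all highest in 1 library. Of 8 tooth genes 4 were tested, and Mmp20, Klk4 and Amtn had at most 3 counts in any library. Enam, an enamel matrix gene, had 15 counts (1.61 CPM) in heterozygous replicate 4. Amelx, the enamel matrix protein amelogenin, had 34.0 CPM in heterozygous replicate 4 and 0.0784 CPM at the lowest, in heterozygous replicate 2. Odam, a protein of maturing enamel, was present in every library at 9.98 CPM or more (mean 48.1 CPM in wild type and 25.0 CPM in homozygous libraries). It reached 113 CPM in heterozygous replicate 4, where Ambn (ameloblastin, 11.5 CPM) and Dspp, a dentin matrix gene (43 counts), were also highest. This is the library with the highest Ibsp, Spp1, Ctsk and Acta1. Without it the bone score of heterozygous minus wild type was 0.18 in place of 0.36.

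Genes of the epithelium itself were measured beside these lists. The mean log2 level of 10 mature OSN genes was 7.27 ± 0.39 in wild type (SD, n = 3), 7.12 ± 0.15 in heterozygous (SD, n = 4) and 7.03 ± 0.17 in homozygous libraries (SD, n = 4), and 0 of 10 had an unadjusted p under 0.05 in any of the 3 comparisons (beside 3.02%, 2.24% and 0.561% of all genes). Of these 10 genes 0 had a log2 fold change above 0 in homozygous or in heterozygous against wild type (medians -0.29 and -0.18), where 52.8% and 50.4% of all genes did. Wild type replicates 1 to 3 had list means of 7.62, 7.34 and 6.85, so replicate 3 lay below the mean of either deletion group. The mean of the list had r = -0.06 with the cartilage (0.56 without the 2 farthest libraries) and -0.36 with the bone score. Sustentacular cell genes had r = -0.67 with the cartilage score (-0.48 without the 2 farthest libraries). Fibroblast genes had r = 0.48 with the cartilage and 0.65 with the bone score. Total counts (log2) had r = 0.19 with the cartilage and 0.08 with the bone score, and Rn45s 0.04 and 0.20.

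**Figure D5:**
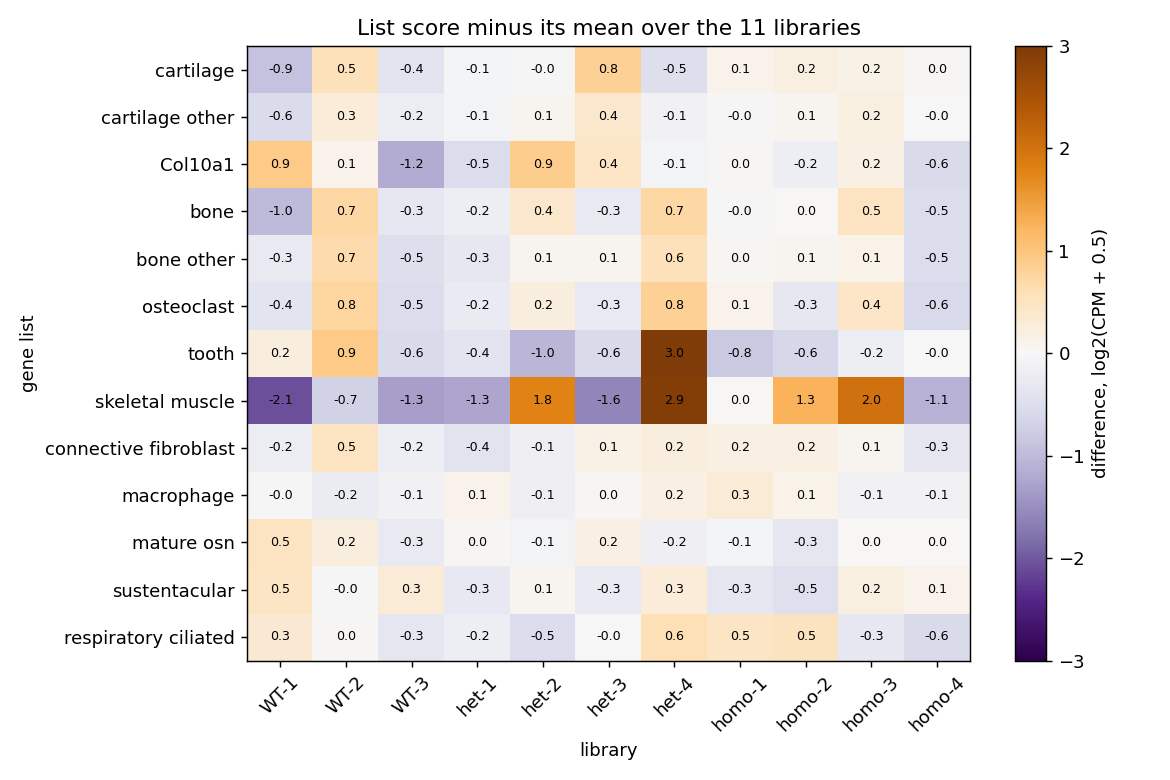
Difference of each list's mean log2(CPM + 0.5) from its mean over the 11 libraries (columns, by genotype and replicate), with purple below and orange above. Col10a1 is a single gene. Cartilage and other cartilage genes share a pattern, bone shares one with osteoclast and muscle genes, and heterozygous replicate 4 (het-4) stands out in tooth and skeletal muscle.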

How the data were processed

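Polyadenylated RNA of whole MOE was sequenced with a directional kit. The authors trimmed reads with Trimmomatic (0.36), aligned them to mm10 (GRCm38) with HISAT2 (2.1.0) and deposited raw counts per gene from featureCounts (Subread 1.6.2), and their methods name DESeq2 (1.20.0) for testing. The annotation, strand setting and treatment of reads with several positions are not given in the sources used here. The deposited table of normalised signal was not used. Groups come from the labels.

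Counts were tested with edgeR (4.0.16) in R (4.3.3), with TMM scaling, filterByExpr by genotype, 1 quasi-likelihood fit of 3 genotypes over 11 libraries, and Benjamini-Hochberg adjustment over 16574 genes at a threshold of 0.05. The steps were tested on simulated counts with changes put into 200 genes. These were drawn without the library sets, so they do not show how many true changes the steps find in these libraries. Scores are means of log2(CPM + 0.5), with means and correlations given without a test. Coordinates and exon lengths are from GENCODE M21 (mm10), and promoters from RefSeq.

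Alternatives were DESeq2 (1.42.0), RLE scaling, no filter, a replicate block, library set as a covariate, 2 genotypes alone, another pseudocount, summed CPM and leaving out each library. The 10 genes and all lists were chosen with earlier results of these data known. Named are the 10 genes with Bglap2 and Bglap3, of the cartilage, bone, osteoclast and tooth lists the genes with an adjusted p under 0.05 (0 genes) or else the 3 most abundant, and the 5 genes most like each score, while other names were chosen after values were seen. Same-numbered libraries deviated together from their group means in all 3 wild type and homozygous pairs (correlations of 0.34, 0.44 and 0.42), which met the criterion of 0.1 for taking the numbers as pairs there. Each pair lay within 1 library set, and differently numbered libraries of the same set correlated as highly (0.41 for wild type replicate 1 with homozygous replicate 2, 0.26 for wild type 2 with homozygous 1 and 0.48 for wild type 3 with homozygous 4). The labels state no shared litter or day. With heterozygous libraries the correlations were negative (-0.60 to -0.22), and these were not paired.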

Additional observations from a re-analysis of the deposited data

Results flagged for a closer look

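Of 24 groups of 4 libraries examined for a library apart from the others, 1 stood out, and chance gives about 1 in 20. It was Acan in heterozygous libraries, where replicate 3 had 1129 CPM and the other 3 lay between 551 and 648 CPM. The gap was 0.831 of the group's range, which exceeds Dixon's critical value for 4 libraries. The same library was the highest of its group for Col2a1, Col9a1 and Matn1.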

How the results depend on the processing

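No alternative changed the finding that 0 of the 10 genes passed in any comparison, with 1 exception, chosen after seeing the data. In a fit of homozygous and wild type alone with the replicate block, 1 gene passed, Ibsp at 1.26 (edgeR, adjusted p 0.0260, against 0.705 to 1 in the other fits of that comparison), with 39 genes called in all, and Col10a1 turned to 0.0252. The same fit called 8 genes in heterozygous against wild type. In pairs that involve heterozygous libraries the same number marked no shared deviation, so the 8 genes rest on a shared number alone. The replicate block over all 3 genotypes called 0 genes, and the block changed no other call among the 10 genes. DESeq2 called 8 genes between homozygous and wild type, 3 between heterozygous and wild type, 2 between the deletion groups and 5 over the 3 genotypes, where edgeR called 0.

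The sign turned for values close to 0 in homozygous against heterozygous. Col2a1 was -0.0127 with RLE scaling, -0.0175 without a filter, -0.000878 in a fit of the 2 genotypes and -0.0118 with DESeq2. Sp7 was -0.00462, -0.0102 and -0.00323 with RLE scaling, no filter and DESeq2. Runx2 was -0.00137, -0.00550 and -7.1e-05 in these, -0.0171 with the replicate block, -0.00675 with library set as a covariate and -0.0191 in the 2 genotypes with the block. Ibsp was -0.00121 without a filter. Matn1 was 0.18 with the block and 0.20 in the 2 genotypes with it, where Acan was 0.0123.

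Leaving out each library in turn called 0 genes in every comparison, and log2 fold changes whose sign turned ranged as follows. In homozygous against wild type the ranges were Col2a1 -0.0927 to 0.703, Acan -0.0759 to 0.748, Col9a1 -0.073 to 0.59, Col10a1 -0.683 to 0.300, Bglap -1.86 to 0.115 and Spp1 -0.144 to 1.34. In heterozygous against wild type the ranges were Col2a1 -0.0934 to 0.702, Acan -0.061 to 0.797, Col9a1 -0.0311 to 0.66, Matn1 -0.0106 to 0.994, Col10a1 -0.305 to 0.678 and Bglap -1.29 to 0.685. In homozygous against heterozygous the ranges were Col2a1 -0.18 to 0.246, Acan -0.164 to 0.239, Col9a1 -0.214 to 0.183, Matn1 -0.287 to 0.522, Ibsp -0.412 to 0.422, Sp7 -0.118 to 0.0907 and Runx2 -0.172 to 0.112. With 4 to 133 counts a library, Bglap had the fewest counts of the genes.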
